A study of Arabidopsis thaliana with 6 samples.

Results

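The genes described here are 47 nuclear genes of *Arabidopsis thaliana* that encode the light-harvesting antenna, subunits of photosystems I and II, the small subunit of Rubisco and Rubisco activase. They were taken by gene identifier from a table of 37336 genes, and all 47 were found. By complex they comprise 6 LHCA antenna genes of photosystem I, 9 major LHCB and 6 other LHCB antenna genes, 5 genes of Rubisco and its activase, 12 photosystem I subunits and 9 photosystem II subunits. RNA was measured in the *eml1 eml3* double mutant (alleles *eml1-2* and *eml3-4*) and in wild type (WT), with 3 libraries of each. Each library was made from polyadenylated RNA of self-pollinated siliques taken 1 to 5 days after pollination. Neither the accession of the genotypes nor the number of siliques or plants per library is given in the sources used here. Nothing in the labels ties a library to its own plants or harvest, so that the p-values describe the spread between these libraries only, and that spread may be technical.

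In green tissue, antenna proteins bind chlorophyll and pass absorbed light energy to the reaction centres of the photosystems, which drive electron transport in the thylakoid membrane. Rubisco fixes carbon dioxide in the chloroplast stroma, and its activase frees its active sites from bound sugar phosphates. The young silique wall and, later, the embryo are green and photosynthetic. The EML proteins, named in the series title as histone readers, carry an ENT domain and a Tudor-like domain.

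Values are read counts per gene divided by the size factor of the library, called normalized counts here. The libraries held 26771227 to 39246167 reads. EML3 had 190, 173 and 198 normalized counts in mutant replicates 1, 2 and 3, against 2255, 2129 and 2718 in WT replicates 1, 2 and 3. EML1 was not past the threshold (1144 ± 83.7 in the mutant and 1281 ± 88.0 in WT, SD, n = 3 each, limma adjusted p = 0.499), and its gene-level count is no check of that allele. Mutant replicate 3 stood apart. Across tested genes its log2 values correlated with those of mutant replicates 1 and 2 at r = 0.9299 and 0.9315, and those 2 libraries with each other at r = 0.9793. The summed level of 11 markers of the maturing embryo (cruciferins, seed storage albumins and oleosins) was 325, 307 and 70146 normalized counts in mutant replicates 1, 2 and 3, against 662, 498 and 289 in WT replicates 1, 2 and 3. All 11 were highest in mutant replicate 3, and SESA5 was at 0 in the other 5 libraries. Summed markers of the silique wall ranged over 7368 to 8103 in mutant libraries and 7751 to 8388 in WT libraries. Those of the seed coat ranged over 19512 to 20351 in mutant libraries and 19151 to 24827 in WT libraries, and those of the endosperm over 2559 to 2729 in mutant libraries and 2790 to 3332 in WT libraries. Pollen markers summed to 3241 to 5425 in the mutant and 5615 to 14365 in WT, highest in WT replicate 3. Of 6 silique wall markers, 2 had a log2 difference above 0 and 4 below. SHP1 alone passed the threshold (log2 difference -0.53, limma adjusted p = 0.0273), while FUL (listed as AGL8) was higher in all mutant libraries without passing. Of 5 pollen markers, 1 was above 0 and 4 below, and PPME1 alone passed (log2 difference -1.81, limma adjusted p = 0.0276). In these bulk samples fewer cells of a type and less RNA per cell cannot be told apart.

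Most of the photosynthesis genes lay within narrow limits between the genotypes, and 3 antenna genes passed the test. LHCB4.3 rose, and LHCB1.4 and LHCB4.2 fell, in the mutant relative to WT. Of the 47 genes, 46 had a mean of at least 10 normalized counts and were tested by limma on log2(normalized count + 1), within the whole table. A gene passed at an adjusted p (Benjamini-Hochberg) under 0.05. Among all 21751 tested genes, 1476 passed (6.79%), 802 of them higher in the mutant (3.69%) and 674 lower (3.1%). With each library rescaled to one total that split was 615 higher and 864 lower. Among the photosynthesis genes 1 was higher and 2 were lower, or 3 of 46, and 6 of 46 had an unadjusted p below 0.05, against 4684 of all 21751 tested genes, a larger share.

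The size of the differences was small beside that of other genes. The median absolute log2 difference was 0.088 over the 46 genes and 0.257 over all tested genes. These sets were not matched for expression level. The median standard error was 0.158 over the 46 genes and 0.206 over all tested genes. The 95% interval of the difference lay inside a 1.5-fold change either way for 33 of the 46 genes, against 34.6% of all tested genes. It lay inside a 2-fold change for 45 of them, all but LHCB1.4, against 63.3% of all tested genes. In 5 genes all mutant libraries lay above all WT libraries and in 2 genes below, while 39 overlapped. Of all tested genes 14% lay entirely above and 12.8% entirely below, or 26.9% without overlap.

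The signed differences were spread around 0. The median log2 difference was 0.03 over the 46 genes, with 24 above 0 and 22 below, and 0.003 over all tested genes. Rescaling to one total gave a median of -0.03 over the 46 genes and -0.06 over all tested genes. Quantile normalization gave -0.07 over the 46 genes and 0.009 over all tested genes, so the median has no stable sign. The median of the 46 genes was -0.06 without mutant replicate 3, 0.11 without WT replicate 1 and -0.04 without WT replicate 3. The number of these genes past the threshold also rested on the libraries. It was 1, 0 and 4 without mutant replicate 1, 2 or 3, where 3.05%, 2.62% and 12.1% of all tested genes passed. It was 1, 0 and 1 without WT replicate 1, 2 or 3, where 3.76%, 2.91% and 4.12% of all tested genes passed.

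**Figure D1:**
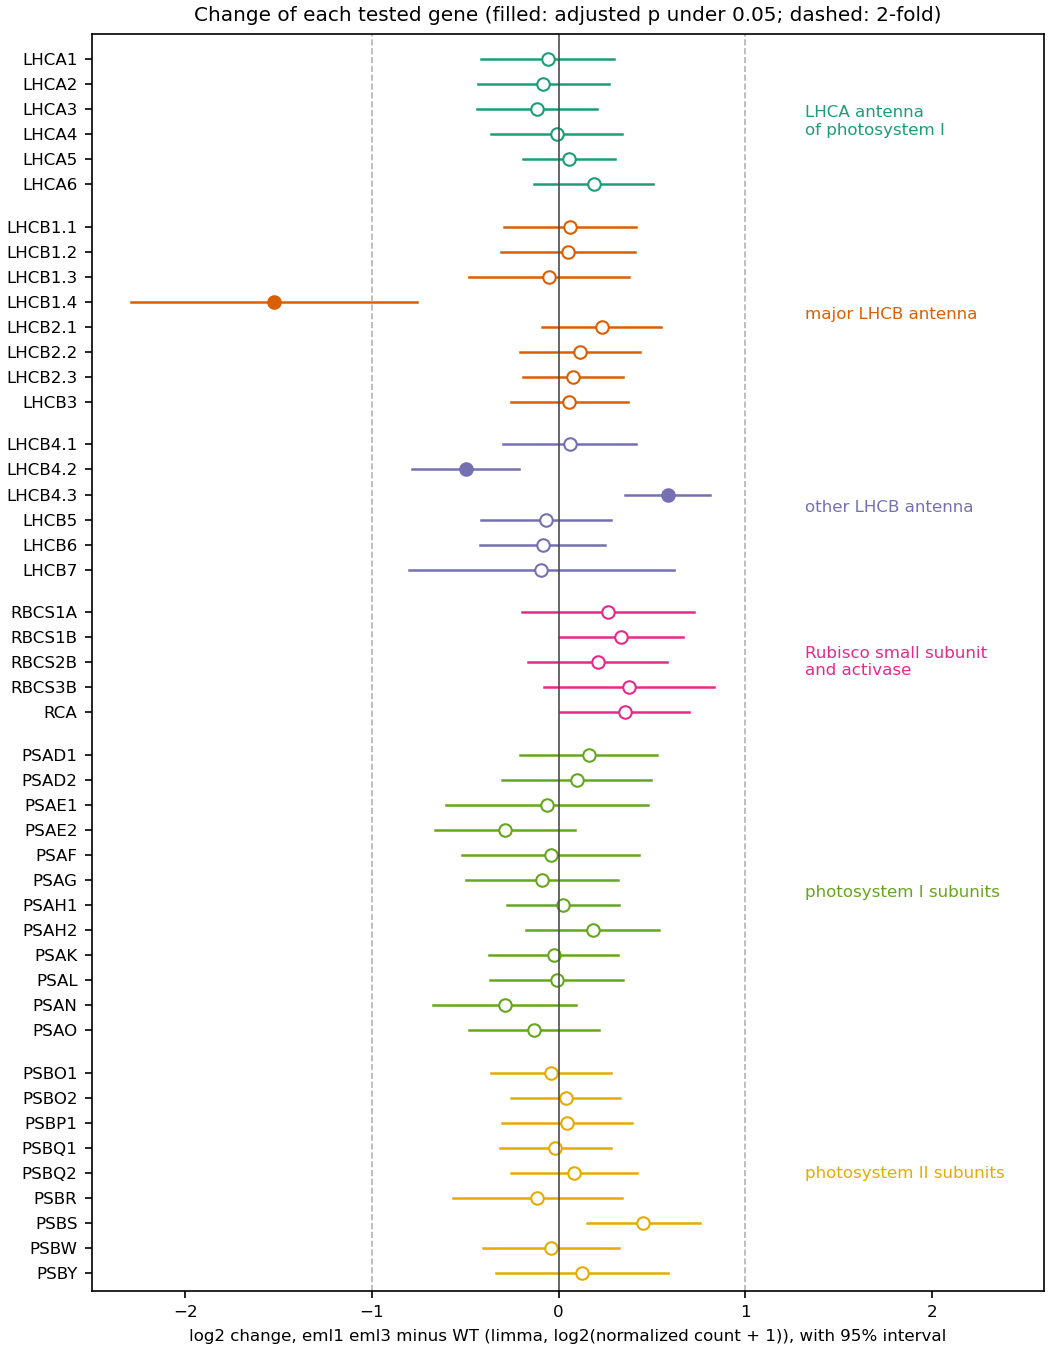
Log2 difference between the *eml1 eml3* mutant and WT for each of the 46 tested genes, grouped by complex, with points for the limma estimate on log2(normalized count + 1) and bars for its 95% interval. Filled points (LHCB1.4, LHCB4.2 and LHCB4.3) passed the threshold on the adjusted p, and only the interval of LHCB1.4 reaches beyond the dashed lines of a 2-fold change.

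Together the 47 genes took up a similar share of the libraries of both genotypes. Their normalized counts made up 9.46%, 9.41% and 11.0% of the total in mutant replicates 1, 2 and 3, against 10.7%, 9.68% and 8.98% in WT replicates 1, 2 and 3. The major LHCB genes made up 2.50% ± 0.07 of the mutant libraries and 2.64% ± 0.27 of the WT libraries (SD, n = 3 each). Rubisco and its activase made up 3.42% ± 0.45 in the mutant and 2.88% ± 0.15 in WT, the only one of the 6 groups of genes whose shares did not overlap between genotypes. The remaining 4 groups each took between 0.724% and 1.42% of a library.

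**Figure D2:**
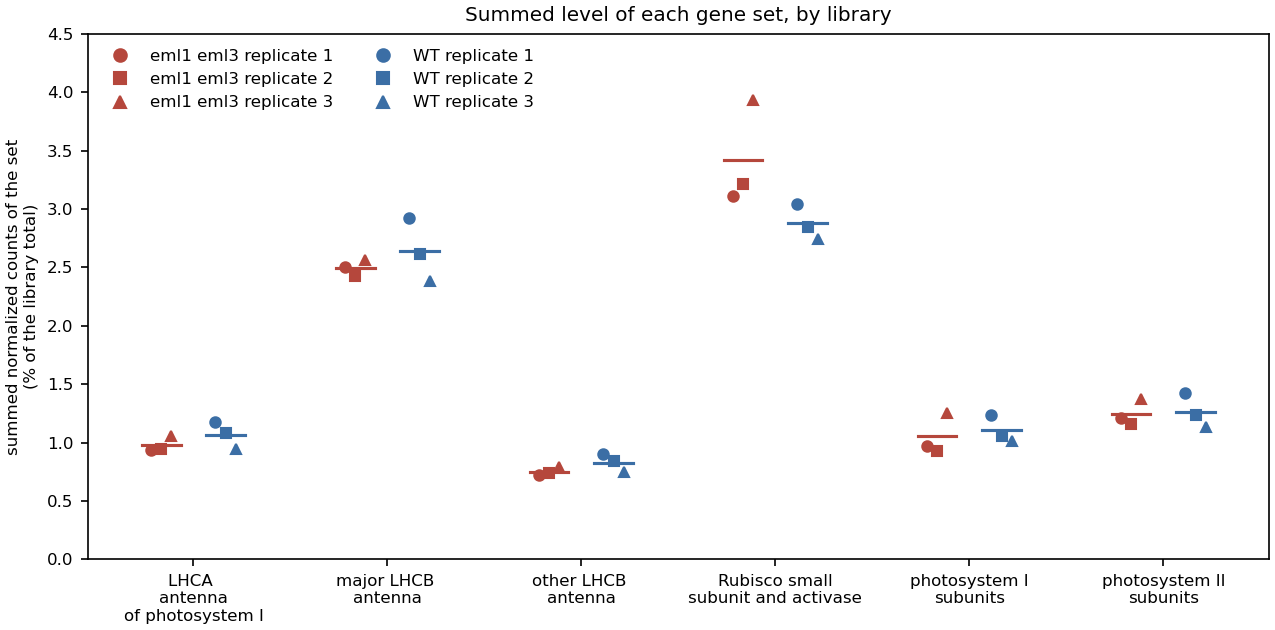
Summed normalized counts of each group of genes as a percentage of the library total, with 1 point for each of the 3 mutant and 3 WT libraries and a line at the mean. In the Rubisco group all mutant libraries lie above all WT libraries, mutant replicate 3 the highest at 3.94%, and the other 5 groups overlap.

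Levels of different genes were compared per kilobase of exon. RBCS1A was the highest, at 370103 normalized counts per kilobase in the mutant and 306114 in WT, followed by LHCB1.3 at 278419 in the mutant and 290280 in WT. Per kilobase of exon that no other gene overlaps, LHCB1.3 had 305219 in the mutant and 318221 in WT, so that it stood above RBCS1A in WT. RBCS3B, RBCS2B and LHCB1.1 took the next places in both genotypes. The lowest tested gene was LHCB7, a rarely studied antenna homologue, with 248 per kilobase in the mutant and 249 in WT. LHCA5, LHCA6 and LHCB4.3 lay next above it, with 1726 to 3409. Over the full exon length LHCB1.4 took place 38 of 47 in the mutant and place 28 in WT.

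The trimeric antenna of photosystem II, called LHCII, is built from LHCB1, LHCB2 and LHCB3 proteins. LHCB1 is encoded by 5 genes, 3 neighbours on chromosome 1 and 2 on chromosome 2. Their coding sequences in RefSeq (TAIR10.1) show how alike the copies are. Across 60 aligned coding bases, starting at base 430 of LHCB1.1 counted from its start codon, 9 positions differ among the 5, and these are in capitals. The stretch is shown because LHCB1.4, which fell in the mutant, carries the same letters there as LHCB1.5 and differs from the 3 abundant copies.
LHCB1.1: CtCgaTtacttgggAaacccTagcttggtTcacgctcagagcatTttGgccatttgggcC
LHCB1.2: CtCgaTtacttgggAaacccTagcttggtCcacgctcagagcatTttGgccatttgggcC
LHCB1.3: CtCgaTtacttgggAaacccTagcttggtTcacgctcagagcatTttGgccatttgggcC
LHCB1.4: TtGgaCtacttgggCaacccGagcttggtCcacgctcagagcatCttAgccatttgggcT
LHCB1.5: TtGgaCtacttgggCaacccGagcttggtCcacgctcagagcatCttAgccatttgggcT

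Over the whole coding region LHCB1.4 was 92.45% identical to LHCB1.5 and 87.02% to 88.39% identical to the 3 copies on chromosome 1, which were 95.65% to 96.39% identical to each other. Of all 50-base windows in LHCB1.4 transcripts, 13.7% also occurred in another gene, and of 100-base windows 3.30% did. The share of 50-base windows also found in another gene was 20.47% for LHCB1.1, 10.65% for LHCB1.2 and 17.02% for LHCB1.3. The sources used here give neither the read length nor the treatment of reads that fit several genes. Values of single LHCB1 copies are therefore uncertain.

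LHCB1.4 (AT2G34430, also LHB1B1) fell in the mutant. It had 9468, 7356 and 23565 normalized counts in mutant replicates 1, 2 and 3, against 41803, 31030 and 30136 in WT replicates 1, 2 and 3. All mutant libraries lay below all WT libraries, and mutant replicate 3 was the nearest to WT. The mean was 13463 ± 8812 in the mutant and 34323 ± 6493 in WT (SD, n = 3 each), 2.55-fold lower. The log2 difference was -1.52 ± 0.35 (SE), with a 95% interval of -2.29 to -0.76 and a limma adjusted p of 0.0275. Without mutant replicate 3, the library with the high embryo markers, it was -2.02 with a limma adjusted p of 4.75e-05. Leaving out any other library gave -1.61 to -1.18, with limma adjusted p of 0.102 and 0.0897 without mutant replicate 1 or 2, and of 0.101, 0.0872 and 0.0718 without WT replicate 1, 2 or 3. In the authors' deposited table the log2 change was -1.35 and the adjusted p 0.125.

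The total of the LHCB1 family as counted overlapped between genotypes, and copies other than LHCB1.4 carried most of it. The 4 LHCB1 genes with counts, LHCB1.5 being listed at 0, summed to 615821 ± 34613 normalized counts in the mutant and 642452 ± 89223 in WT (SD, n = 3 each). LHCB1.4 made up 1.55%, 1.26% and 3.61% of that sum in mutant replicates 1, 2 and 3, against 5.69%, 4.88% and 5.41% in WT replicates 1, 2 and 3. LHCB1.3, the most abundant copy per kilobase, made up 55.6% ± 0.84 in the mutant and 55.6% ± 0.29 in WT (SD, n = 3 each). It had 344794, 321502 and 361070 normalized counts in mutant replicates 1, 2 and 3, against 410551, 351568 and 309013 in WT replicates 1, 2 and 3, and these groups overlapped. The log2 differences of LHCB1.1, LHCB1.2 and LHCB1.3 were between -0.05 and 0.06 and none passed the threshold.

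LHCB1.5 (AT2G34420) was listed at 0 in all 6 libraries and was not tested. A count of 0 allows up to 3 reads per library, or 2.43 to 3.78 normalized counts. In TAIR10.1 its exons lie entirely within an annotated antisense long non-coding RNA (AT2G08665), which was also listed at 0 in all 6 libraries. No level of LHCB1.5 can therefore be read from this table.

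The other major antenna genes were not past the threshold. LHCB2.1, whose product is phosphorylated when antenna moves between the photosystems, had 46098, 49866 and 62057 normalized counts in mutant replicates 1, 2 and 3, against 46320, 45560 and 41784 in WT replicates 1, 2 and 3. Mutant replicate 1 lay below the highest WT library, so the groups overlapped. Its log2 difference was 0.23 (95% interval -0.09 to 0.55). LHCB2.2 differed by 0.12 and LHCB2.3 by 0.08, and these copies share sequence, with 28.2% of the 50-base windows of LHCB2.2 also found in LHCB2.1. LHCB3, which encodes the third LHCII protein, averaged 61379 ± 601 in the mutant and 59337 ± 8405 in WT (SD, n = 3 each), a log2 difference of 0.06 (95% interval -0.25 to 0.37).

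The remaining LHCB proteins link the LHCII trimers to the photosystem II core. LHCB4, also called CP29, is encoded by 3 genes, and the share of each in the family did not overlap between genotypes. RefSeq (TAIR10.1) coding sequences of these genes are less alike than those of LHCB1, and no 50-base window of LHCB4.1, LHCB4.2 or LHCB4.3 occurred in another gene. The 60 aligned bases below start at coding base 377 of LHCB4.1, and the 20 positions that differ among the copies are in capitals. They are shown because the copies can be told apart by sequence where their counts move in opposite directions.
LHCB4.1: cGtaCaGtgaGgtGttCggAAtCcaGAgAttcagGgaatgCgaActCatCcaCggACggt
LHCB4.2: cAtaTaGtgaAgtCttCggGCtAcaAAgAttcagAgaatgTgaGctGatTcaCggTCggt
LHCB4.3: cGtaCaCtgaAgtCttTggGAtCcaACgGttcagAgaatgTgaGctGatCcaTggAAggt

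LHCB4.3 (AT2G40100), the divergent form of CP29, rose in the mutant. It had 4817, 5149 and 4845 normalized counts in mutant replicates 1, 2 and 3, against 3509, 3216 and 3161 in WT replicates 1, 2 and 3. The groups did not overlap, and the spread within each was small beside the gap between them. The mean was 4937 ± 184 in the mutant and 3295 ± 187 in WT (SD, n = 3 each), 1.5-fold higher, with a log2 difference of 0.58 ± 0.10 (SE) and a limma adjusted p of 0.00845. Without mutant replicate 3 the log2 difference was 0.60 (limma adjusted p = 0.00603). The limma adjusted p was 0.0568 without mutant replicate 2 and 0.0538 without WT replicate 2.

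LHCB4.2 (AT3G08940) fell in the mutant. It had 25807, 27035 and 32202 normalized counts in mutant replicates 1, 2 and 3, against 42610, 39516 and 37635 in WT replicates 1, 2 and 3. The groups did not overlap. The mean was 28348 ± 3394 in the mutant and 39921 ± 2512 in WT (SD, n = 3 each), 1.41-fold lower, with a log2 difference of -0.50 ± 0.13 (SE) and a limma adjusted p of 0.0462. It was -0.59 without mutant replicate 3 (limma adjusted p = 0.00721). The limma adjusted p was 0.203 and 0.193 without mutant replicate 1 or 2, and 0.113, 0.146 and 0.0761 without WT replicate 1, 2 or 3.

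LHCB4.1 (AT5G01530), the most abundant copy, averaged 82099 ± 14981 normalized counts in the mutant and 78132 ± 6120 in WT (SD, n = 3 each), a log2 difference of 0.06 that did not pass. The family total overlapped between genotypes, at 115384 ± 18319 in the mutant and 121348 ± 8800 in WT (SD, n = 3 each). Its make-up did not overlap for any copy, but shares of 1 total depend on each other and are not separate results. No background rate for such shares over all gene families was taken. LHCB4.1 made up 71.0% ± 1.59 of the total in the mutant and 64.4% ± 0.43 in WT (SD, n = 3 each). LHCB4.2 made up 24.7% ± 0.90 in the mutant and 32.9% ± 0.36 in WT, and LHCB4.3 4.35% ± 0.69 in the mutant and 2.72% ± 0.07 in WT.

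LHCB5 (CP26) had the highest level per kilobase among these linking antenna genes, at 63274 normalized counts per kilobase in the mutant and 66862 in WT. Its log2 difference was -0.07 (95% interval -0.42 to 0.28). LHCB6 (CP24) differed by -0.09 (95% interval -0.42 to 0.25). LHCB7 differed by -0.09 with the widest interval of the group, -0.80 to 0.62. It had 332, 408 and 163 normalized counts in mutant replicates 1, 2 and 3, against 278, 263 and 366 in WT replicates 1, 2 and 3, and mutant replicates 2 and 3 held its highest and lowest values.

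**Figure D3:**
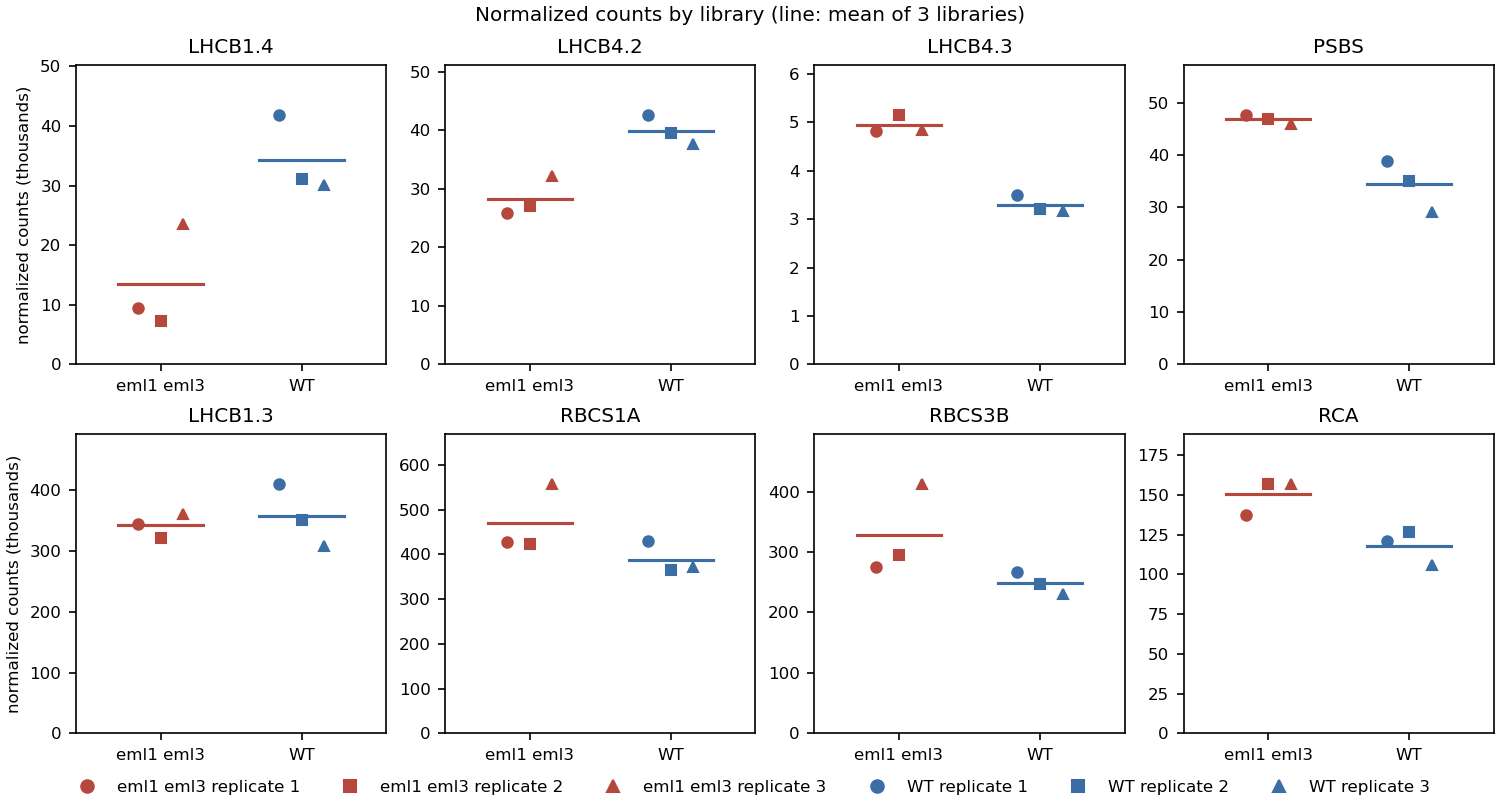
Normalized counts of 8 genes in each of the 3 mutant and 3 WT libraries, with a line at the mean of each genotype and axes from 0. LHCB1.4 and LHCB4.2 lie lower in all mutant libraries, LHCB4.3 lies higher in all of them, and LHCB1.3 and RBCS1A overlap between genotypes. PSBS, RBCS3B and RCA lie higher in all mutant libraries without passing the threshold.

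The 6 LHCA genes encode the antenna of photosystem I. By limma 0 passed the threshold, 0 had an unadjusted p below 0.05 and 0 passed with edgeR or DESeq2. All 6 overlapped between genotypes, and each 95% interval lay inside a 1.5-fold change. LHCA4, the highest per kilobase, had 93833, 94102 and 104210 normalized counts in mutant replicates 1, 2 and 3, against 114529, 97218 and 84521 in WT replicates 1, 2 and 3. The WT libraries held both the highest and the lowest value. LHCA6, a minor form that takes part in joining photosystem I to the NDH complex, averaged 2520 ± 383 in the mutant and 2210 ± 284 in WT (SD, n = 3 each), a log2 difference of 0.19 (95% interval -0.13 to 0.51). LHCA3 differed by -0.12 (95% interval -0.44 to 0.20). LHCA5, the other minor form, differed by 0.06 (95% interval -0.19 to 0.30), and LHCA1 and LHCA2 by -0.06 and -0.08.

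Of the 12 nuclear subunits of photosystem I, 0 passed the threshold by limma, 0 had an unadjusted p below 0.05 and 0 passed with edgeR or DESeq2. All 12 overlapped between genotypes. The log2 differences ran from -0.29 to 0.18, 4 above 0 and 8 below, with a median of -0.03. PSAF, which docks plastocyanin and was the highest per kilobase, had 68295, 65577 and 117246 normalized counts in mutant replicates 1, 2 and 3, against 88802, 78618 and 82280 in WT replicates 1, 2 and 3. Mutant replicates 1 and 2 lay below all WT libraries and mutant replicate 3 above all of them. The smallest unadjusted p-values of the group belonged to PSAE2, a stromal subunit on the ferredoxin side (log2 difference -0.29, 95% interval -0.66 to 0.09), and PSAN, a lumenal subunit on the plastocyanin side (log2 difference -0.29, 95% interval -0.67 to 0.09).

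PSAE1, the second copy of PSAE, followed the same split between mutant libraries as PSAF. It had 5444, 5861 and 11745 normalized counts in mutant replicates 1, 2 and 3, against 8054, 6748 and 7873 in WT replicates 1, 2 and 3. With all libraries its log2 difference was -0.06 (limma adjusted p = 0.915), and without mutant replicate 3 it was -0.42 (limma adjusted p = 0.0426). Without that library 4 genes of the 46 were past the threshold, PSAE1 beside the 3 antenna genes. Mutant replicate 3 is the library in which the summed embryo markers stood at 70146, and their part in these values was not tested.

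The stromal and peripheral subunits gave small differences. PSAD1 and PSAD2, the pair of genes for the ferredoxin-docking subunit, differed by 0.16 and 0.10 on the log2 scale, and PSAH1 and PSAH2, the pair for a subunit at the LHCII contact site, by 0.02 and 0.18. PSAG and PSAK, which flank the LHCA belt, differed by -0.09 and -0.03, PSAL by -0.01 and PSAO by -0.13. The exons of several of these genes overlap those of an antisense neighbour in TAIR10.1, over 61.4% of PSAG, 53.3% of PSAH1, 34.1% of PSAE1 and 24.8% of PSAH2. The library protocol describes no step that marks the strand, so reads on shared bases cannot be assigned to 1 gene. Of protein-coding genes whose exons lie entirely within those of another gene, 367 of 368 were at 0. Counts and levels per kilobase of PSAG, PSAH1, PSAE1 and PSAH2 are therefore uncertain and may be too low. Per kilobase of unshared exon PSAG had 18718 in the mutant and 19681 in WT, against 7223 and 7595 over all exons.

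Among the 9 nuclear subunits of photosystem II, 0 passed the threshold in limma, and 1 had an unadjusted p below it. That gene was PSBS (AT1G44575, also NPQ4), the thylakoid protein needed for the rapid dissipation of excess light energy as heat. It had 47592, 46832 and 45858 normalized counts in mutant replicates 1, 2 and 3, against 38917, 35088 and 29076 in WT replicates 1, 2 and 3. All mutant libraries lay above all WT libraries. The mean was 46761 ± 869 in the mutant and 34360 ± 4960 in WT (SD, n = 3 each), with a log2 difference of 0.45 (95% interval 0.15 to 0.76, limma adjusted p = 0.0765). It passed with DESeq2 on the recovered reads (DESeq2 adjusted p = 0.0143), with edgeR without a filter (edgeR adjusted p = 0.0414) and with a robust prior in limma (limma adjusted p = 0.0473), and its adjusted p over all alternatives ran from 0.0143 to 0.232. In the authors' deposited table PSBS, LHCB4.2 and LHCB4.3 were the 3 of these 46 genes with an adjusted p below the threshold, against 9.65% of all genes with an adjusted p there.

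The oxygen-evolving subunits and small proteins of photosystem II overlapped between genotypes. PSBO1 and PSBO2, the pair of genes for the manganese-stabilizing protein, differed by -0.04 and 0.04 on the log2 scale. PSBP1 differed by 0.05, PSBQ1 by -0.02 and PSBQ2 by 0.08. PSBR, the highest of the group per kilobase, had 64991, 56653 and 67168 normalized counts in mutant replicates 1, 2 and 3, against 94150, 64621 and 51668 in WT replicates 1, 2 and 3, and WT held both the highest and the lowest value. PSBY had 41011, 39182 and 69336 in mutant replicates 1, 2 and 3, against 45750, 38969 and 47945 in WT replicates 1, 2 and 3, and mutant replicate 3 stood above the other 5 libraries. PSBW differed by -0.04 (95% interval -0.41 to 0.33).

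Rubisco small subunits are encoded by 4 genes, RBCS1A on chromosome 1 and 3 neighbours on chromosome 5. Across 60 aligned bases, coding bases 124 to 183 in RefSeq (TAIR10.1), 8 positions differ among the 4, shown in capitals. The stretch shows how little separates the B genes, whose single values are therefore uncertain.
RBCS1A: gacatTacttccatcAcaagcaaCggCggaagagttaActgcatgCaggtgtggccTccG
RBCS1B: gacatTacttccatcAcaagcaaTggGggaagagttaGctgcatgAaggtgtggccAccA
RBCS2B: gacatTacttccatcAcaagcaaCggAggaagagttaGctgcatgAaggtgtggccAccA
RBCS3B: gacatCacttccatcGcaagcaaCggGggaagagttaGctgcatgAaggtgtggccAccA

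Over the whole coding region the 3 B genes were 96.7% to 97.25% identical to each other and RBCS1A was 90.42% to 90.61% identical to them. Of the 50-base windows of RBCS2B 21.4% occurred in another gene, of RBCS3B 14.6%, of RBCS1B 14.0% and of RBCS1A 1.42%.

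All 5 genes of Rubisco and its activase had a log2 difference above 0, between 0.21 and 0.38, and 0 passed the threshold (limma adjusted p 0.219 to 0.526), with 2 at an unadjusted p below 0.05 and 0 past it with edgeR or DESeq2. Every scaling kept these differences above 0 except quantile normalization, which put RBCS1A at 0.00 and the others at 0.12 to 0.38. Quantile normalization gives a gene of the same rank in every library the same value. RBCS1A had the highest count of the set in every library, so its 0.00 may reflect rank alone. In RBCS1B, RBCS3B and RCA all mutant libraries lay above all WT libraries, as they did for 14% of all tested genes. An unadjusted p below 0.05 was found for 4684 of all 21751 tested genes. RBCS1A had 426951, 423459 and 557461 normalized counts in mutant replicates 1, 2 and 3, against 429360, 364007 and 371091 in WT replicates 1, 2 and 3. Mutant replicate 3 was the highest and mutant replicates 1 and 2 lay below the highest WT library. RCA (Rubisco activase) had 137573, 156913 and 156979 in mutant replicates 1, 2 and 3, against 121373, 126704 and 105695 in WT replicates 1, 2 and 3. Its log2 difference was 0.35 (95% interval 0.01 to 0.70, limma adjusted p = 0.219). RBCS1B averaged 40321 ± 7667 in the mutant and 31628 ± 2377 in WT (SD, n = 3 each), a log2 difference of 0.34 (limma adjusted p = 0.226).

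RBCS3B had 275555, 294574 and 412543 normalized counts in mutant replicates 1, 2 and 3, against 266886, 246554 and 231287 in WT replicates 1, 2 and 3, and mutant replicate 3 was far above the other 5 libraries. RBCS2B, with overlapping groups, differed by 0.21 on the log2 scale. The summed RBCS counts were 852972, 871624 and 1170636 in mutant replicates 1, 2 and 3, against 852533, 750380 and 731689 in WT replicates 1, 2 and 3. The groups did not overlap, but mutant replicate 1 and WT replicate 1 were almost equal. Without mutant replicate 3 the 5 log2 differences were smaller, between 0.08 for RBCS2B and 0.32 for RCA, and still above 0. The share of each RBCS gene in the family total overlapped between genotypes.

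Within each genotype the same library was the highest for most genes of the set. Mutant replicate 3 was the highest of the mutant libraries for 37 of the 46 genes, against 8722 of all 21751 tested genes. Of all 6 libraries it was the highest for 22 of the 46 genes, or 47.8%, against 21.3% of all tested genes. It was the highest of all 6 for all 5 Rubisco and activase genes and for 8 of the 12 photosystem I genes. Its median log2 difference from the mean of mutant replicates 1 and 2 was 0.34 over the 46 genes and -0.005 over all tested genes. WT replicate 1 was the highest of the WT libraries for 43 of the 46 genes, against 7899 of all 21751 tested genes.

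**Figure D4:**
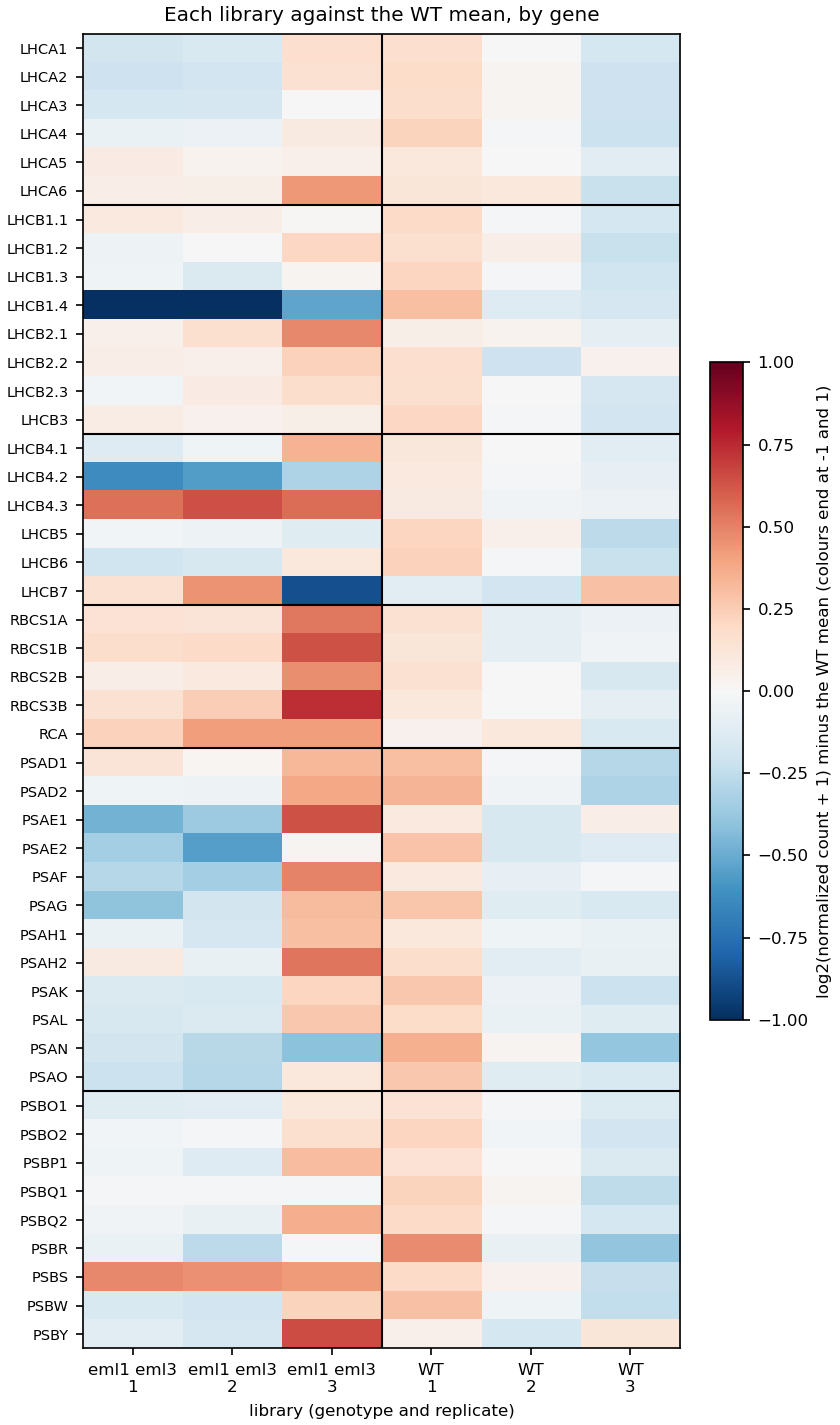
Each library's log2(normalized count + 1) minus the WT mean, for the 46 tested genes in rows and the 3 mutant and 3 WT libraries in columns, with colours ending at a difference of 1 either way. Mutant replicate 3 is the highest mutant library for 11 of 12 photosystem I genes and for all 5 Rubisco genes. For RCA the margin over mutant replicate 2 is very small. LHCB1.4, LHCB4.2, LHCB4.3 and PSBS keep their direction across all 3 mutant columns. Other genes also do so, among them the 5 Rubisco genes, LHCB2.1, LHCB2.2 and LHCB3 above the WT mean and PSAN below it.

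Genes that act with these proteins were described through 10 lists of 118 tested genes, of which 4 were higher and 5 lower in the mutant past the threshold. Against 6.79% of all tested genes, 9 of 118 is close to the background. The count was 3, 3 and 19 without mutant replicate 1, 2 or 3, where 3.05%, 2.62% and 12.1% of all tested genes passed. It was 5, 2 and 5 without WT replicate 1, 2 or 3, where 3.76%, 2.91% and 4.12% of all tested genes passed. The median log2 difference over the 118 genes was 0.06.

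Chlorophyll synthesis had 16 genes tested, of which 1 was lower and 0 were higher in the mutant. The lower gene was PORA, the protochlorophyllide oxidoreductase known from dark-grown seedlings. It had 243, 220 and 333 normalized counts in mutant replicates 1, 2 and 3, against 1674, 1485 and 1422 in WT replicates 1, 2 and 3, so that the groups lay far apart. The mean was 265 ± 59.5 in the mutant and 1527 ± 131 in WT (SD, n = 3 each), 5.76-fold lower, with a log2 difference of -2.54 ± 0.18 (SE, limma adjusted p = 2.83e-05). It kept its call in all 19 alternatives.

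The 2 related genes for the same reaction took other values. PORB had 10501, 8751 and 20120 normalized counts in mutant replicates 1, 2 and 3, against 25552, 24878 and 20517 in WT replicates 1, 2 and 3. All mutant libraries lay below all WT libraries, and only mutant replicate 3 lay near them. The log2 difference of PORB was -0.94 (limma adjusted p = 0.0547). PORC averaged 5812 ± 232 in the mutant and 4982 ± 681 in WT (SD, n = 3 each), a log2 difference of 0.23 (limma adjusted p = 0.313). Its mutant libraries all lay above the WT libraries. Of all tested genes 26.9% were without overlap. The other 13 genes of the list did not pass, and the median of all 16 was 0.04.

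Photoprotection and state transitions had 10 genes tested, of which 1 was higher and 0 were lower. ELIP1, an early light-inducible protein related to the antenna proteins, had 13448, 12847 and 5077 normalized counts in mutant replicates 1, 2 and 3, against 1489, 1583 and 1873 in WT replicates 1, 2 and 3. The groups did not overlap, and mutant replicate 3 was the lowest of the mutant libraries. The mean was 10457 ± 4669 in the mutant and 1648 ± 200 in WT (SD, n = 3 each), 6.34-fold higher, with a log2 difference of 2.54 ± 0.31 (SE, limma adjusted p = 0.000961). It passed in all 19 alternatives, and without mutant replicate 3 the log2 difference was 3.00. Its paralogue ELIP2 averaged 1089 ± 111 in the mutant and 961 ± 212 in WT (SD, n = 3 each), a log2 difference of 0.20 that did not pass.

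**Figure D5:**
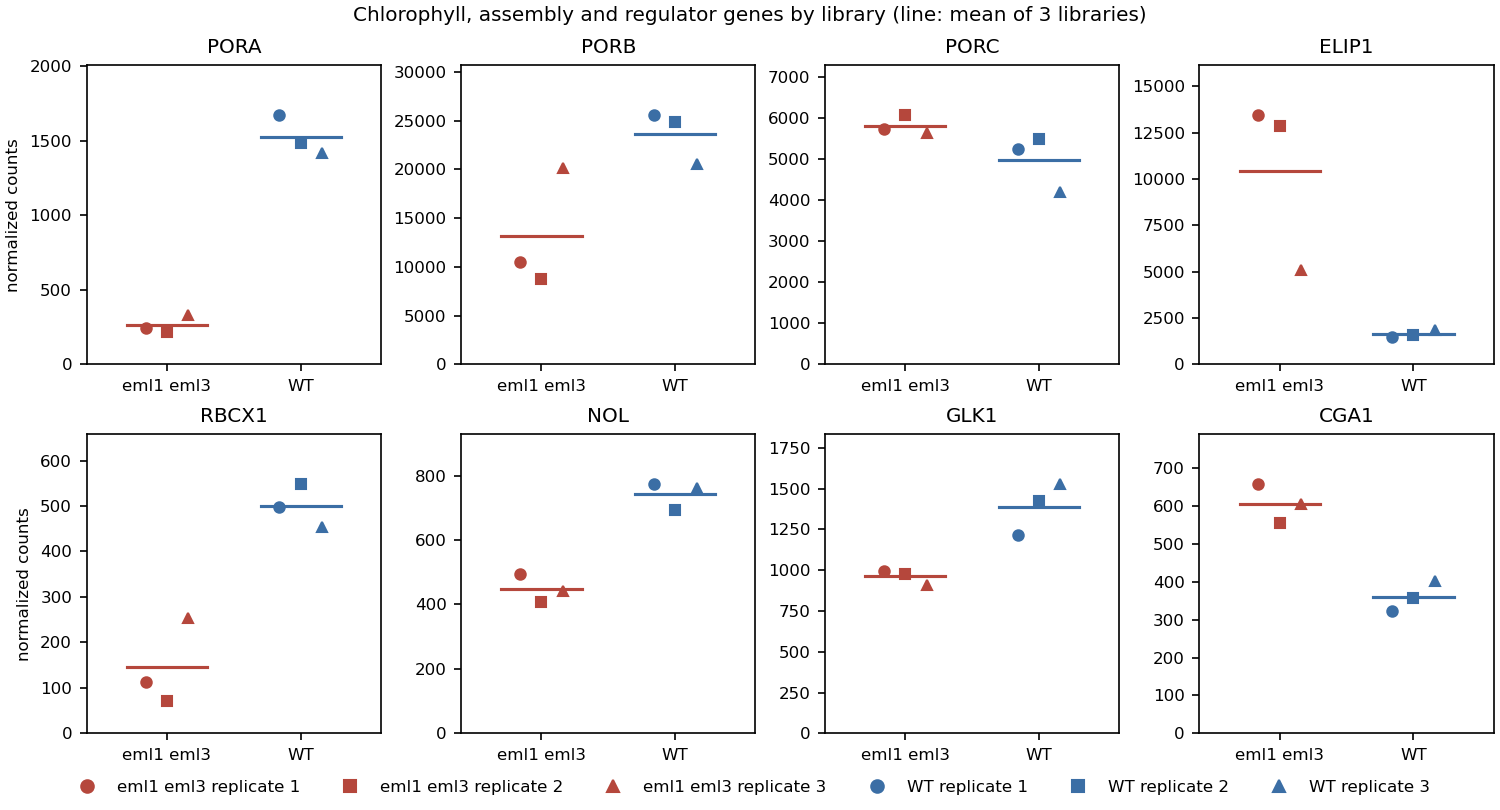
Normalized counts of 8 genes of chlorophyll turnover, photoprotection, Rubisco assembly and regulation in each of the 3 mutant and 3 WT libraries, with a line at the mean of each genotype and axes from 0. PORA, RBCX1, NOL and GLK1 lie lower and ELIP1 and CGA1 higher in all mutant libraries. PORB also lies lower and PORC higher in all of them, without passing the threshold. Mutant replicate 3 is the mutant library nearest to the WT mean for PORA, PORB, PORC, ELIP1 and RBCX1.

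Antenna insertion and Rubisco assembly had 13 genes tested, of which 1 was lower and 0 were higher. RBCX1 (AT4G04330), a chaperone that holds the Rubisco large subunit during assembly, had 112, 71.9 and 255 normalized counts in mutant replicates 1, 2 and 3, against 498, 549 and 454 in WT replicates 1, 2 and 3. Mutant replicate 3 was the nearest to WT. The log2 difference was -1.96 ± 0.38 (SE, limma adjusted p = 0.0139), and the limma adjusted p was 0.0515 without mutant replicate 1, 0.0547 without WT replicate 1 and 0.0732 without WT replicate 2. An antisense neighbour overlaps 19.4% of its exons in TAIR10.1. Chlorophyll breakdown had 7 genes tested, of which 1 was lower and 0 were higher. NOL, a subunit of the chlorophyll b reductase, averaged 448 ± 45.2 in the mutant and 742 ± 43.5 in WT (SD, n = 3 each), a log2 difference of -0.73 (limma adjusted p = 0.0189). Its limma adjusted p was 0.0954 without mutant replicate 2, and 0.0624, 0.0621 and 0.0587 without WT replicate 1, 2 or 3.

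Among 18 regulators of light response and greening, 1 was higher and 1 lower. CGA1, a GATA factor that promotes chloroplast development, had 659, 557 and 605 normalized counts in mutant replicates 1, 2 and 3, against 322, 358 and 404 in WT replicates 1, 2 and 3. The groups did not overlap, and the log2 difference was 0.75 ± 0.17 (SE, limma adjusted p = 0.0255). GLK1 (listed as GPRI1), a factor that activates antenna and chlorophyll synthesis genes, had 996, 978 and 911 in mutant replicates 1, 2 and 3, against 1216, 1422 and 1529 in WT replicates 1, 2 and 3. The groups did not overlap, and the log2 difference was -0.52 ± 0.13 (SE, limma adjusted p = 0.0422). GLK2, which acts in parallel with GLK1, differed by -0.07 on the log2 scale and did not pass. Neither gene passed without mutant replicate 1 or 2 or without WT replicate 2 (limma adjusted p 0.0754 to 0.152). CGA1 also did not pass without WT replicate 1 (limma adjusted p = 0.0731), nor GLK1 without WT replicate 3 (limma adjusted p = 0.12).

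The clock genes, which set the daily rhythm of antenna transcripts, had 11 members tested, of which 2 were higher and 1 lower. LHY had 3039, 3970 and 905 normalized counts in mutant replicates 1, 2 and 3, against 505, 661 and 584 in WT replicates 1, 2 and 3, a log2 difference of 1.93 ± 0.43 (SE, limma adjusted p = 0.0248). CCA1, its partner in repressing evening genes, averaged 1553 ± 529 in the mutant and 670 ± 70.8 in WT (SD, n = 3 each), a log2 difference of 1.15 (limma adjusted p = 0.0181). PRR7, a daytime repressor of both, averaged 2648 ± 109 in the mutant and 4126 ± 699 in WT (SD, n = 3 each), a log2 difference of -0.63 (limma adjusted p = 0.0222). LHY and CCA1 lost their calls without any library other than mutant replicate 3 (limma adjusted p 0.0561 to 0.0947), LHY also with a robust prior (limma adjusted p = 0.14), and PRR7 without mutant replicate 1 or 2 or WT replicate 2 or 3 (limma adjusted p 0.0764 to 0.105).

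The other 4 lists had 0 genes past the threshold in limma, with 4, 1, 1 and 0 at an unadjusted p below 0.05. The 4 were among the 16 Calvin-Benson genes, a share near that of all tested genes (4684 of 21751). In the Calvin-Benson cycle, which uses the carbon fixed by Rubisco, 13 of 16 genes had a log2 difference above 0, with a median of 0.20, and 6 of the 16 lay entirely above WT, against 14% of all tested genes. These 6 (GAPB, FBA1, GAPA-2, FBA2, SBPASE and GAPA) had log2 differences of 0.24 to 0.39. GAPB, a chloroplast glyceraldehyde-3-phosphate dehydrogenase subunit, had 38304, 42119 and 37178 normalized counts in mutant replicates 1, 2 and 3, against 32166, 32605 and 25670 in WT replicates 1, 2 and 3 (log2 difference 0.39, limma adjusted p = 0.121). FBA1, a plastid aldolase, differed by 0.34 (limma adjusted p = 0.143).

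Electron transport and ATP synthase had 12 nuclear genes tested, led by FD1, a ferredoxin, at 8457 ± 253 in the mutant and 6522 ± 1272 in WT (SD, n = 3 each, log2 difference 0.39, limma adjusted p = 0.127), and FNR2, a ferredoxin reductase, at a log2 difference of -0.21. Other photosystem II proteins had 7 genes tested, led by PPL1, a PSBP-like protein, at a log2 difference of -0.24 (limma adjusted p = 0.21), and PSB28, an assembly factor, at 0.19. The 8 chloroplast-encoded partners were measured in polyadenylated RNA and overlapped between genotypes in every case. RBCL, the Rubisco large subunit, averaged 596 ± 111 in the mutant and 452 ± 139 in WT (SD, n = 3 each), and PSBC, a core antenna protein of photosystem II, 1859 ± 422 in the mutant and 1469 ± 679 in WT.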

How the data were processed

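RNA-seq of 3 *eml1 eml3* and 3 WT libraries was analysed from deposited tables. The signal used is gene counts that the authors divided by a DESeq2 size factor per library, per the file headers. The submitters' processing notes list DESeq2, featureCounts, Subread, SAMtools, STAR 2.5.2a and Trim Galore without saying what each did. The sources used here give no genome build, annotation, strand setting or treatment of reads that fit several genes, and coordinates are therefore left out. Dividing by the value of 1 read gave whole reads in 100% of values (tolerance 1e-06). A second deposited table has the log2 fold change, its standard error, a test score and the p-value and adjusted p-value of the authors' own DESeq2 comparison, per the file headers.

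Genes with a mean normalized count of at least 10 were tested by limma 3.58.1 (R 4.3.3) on log2(value + 1), with its variance trend and genotype as sole term, two-sided, with Benjamini-Hochberg adjustment over 21751 genes and a threshold of 0.05. A fold change on this scale understates the change of low genes. Alternatives were pseudocounts of 0.5 and 5, other filters (none, or a mean of 50) and scalings (one total, TMM, quantile), a robust prior, the replicate number as a block, each library left out, and edgeR 4.0.16 and DESeq2 1.42.0 on the recovered reads. The limma fit was tested on simulated data.

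The genes, their grouping and the pathway lists were chosen with earlier results of these data known. Named genes were those past the threshold, the highest per kilobase and the 2 smallest p-values in each complex, and in each pathway list those past the threshold or else the 2 smallest p-values. PORB, PORC, ELIP2, GLK2, GAPA-2, FBA2, SBPASE and GAPA were named after their values were seen. RefSeq (TAIR10.1) gave symbols for 37051 of 37336 identifiers, exon lengths, overlaps and coding sequences, which were aligned with MAFFT 7.526. Printed sequences are the middle 60 columns of the longest stretch without gaps. Intervals are 95% and floors of 3 reads cover counting error only.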

Additional observations from a re-analysis of the deposited data

How the results depend on the processing

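Over all tested genes, 1476 passed the threshold, 2365 did with DESeq2, 1403 with edgeR after filterByExpr, 1996 with edgeR without a filter, and 571 to 2613 did with 1 library left out. Of the 46 photosynthesis genes 3 passed, 0 to 4 did with 1 library left out, and 1 did in edgeR with the replicate block. The pathway lists gave 9 genes past the threshold and 2 to 19 with 1 library left out. The labels do not say whether the replicate numbers pair the samples. Deviations of same-numbered libraries correlated at -0.0788, -0.00199 and -0.169, and those of different-numbered libraries at -0.141 to 0.169. With 3 libraries per genotype these correlations cannot decide on pairing. With that block limma called 1203 genes, 2 of them among the 46, and edgeR called 1009. The median log2 difference of the 46 genes ran from -0.06 to 0.11 with 1 library left out. Across 874 values of single photosynthesis genes under the alternatives 851 kept their side of the threshold, 19 lost a call, 4 gained one and 0 reversed a call. Without a call on either side, 30 genes changed sign in 71 of these values. LHCB4.3 passed in 17 of 19 alternatives, LHCB4.2 in 11, LHCB1.4 in 10 and PSBS in 3. LHCB1.4 did not pass in limma with a robust prior (limma adjusted p = 0.137), edgeR with filterByExpr (edgeR adjusted p = 0.0574), edgeR with the block (edgeR adjusted p = 0.0534) or DESeq2 (DESeq2 adjusted p = 0.124). LHCB4.2 did not pass without a filter on low values (limma adjusted p = 0.0959) or with the block in limma (limma adjusted p = 0.0731) and edgeR (edgeR adjusted p = 0.071). CGA1 did not pass with the block in limma (limma adjusted p = 0.0501) or edgeR (edgeR adjusted p = 0.0583), nor did GLK1 (limma adjusted p = 0.0671, edgeR adjusted p = 0.0748). The cause was not tested. With 3 libraries per genotype the median standard error of a log2 difference was 0.16 over the 46 genes.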

Other observations

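The 0 listed for LHCB1.5 is shared by other genes with the same exon arrangement. Among protein-coding genes whose TAIR10.1 exons lie entirely within exons of another gene, 367 of 368 were at 0 in all 6 libraries (99.7%). Where 50% to under 100% of the exon bases were shared, 43.5% of 745 genes were at 0, where less was shared 2.78% of 6510 were, and where none was shared 8.13% of 19821 were.

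PSAH1 and PSAH2, the pair of genes for one photosystem I subunit, differed in their shares although neither passed the threshold. PSAH1 made up 42.7% ± 1.22 of the summed counts of the pair in the mutant and 45.4% ± 1.18 in WT (SD, n = 3 each), without overlap. The shares of a pair depend on each other and are not separate results. Several gene families were looked at in this way, and no background rate for such shares was taken. Exon bases shared with antisense genes make up 53.3% of PSAH1 and 24.8% of PSAH2, and their part in this difference was not tested.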
